A study of Homo sapiens with 9 samples.

Results

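Genes that report on or feed back into transforming growth factor beta (TGF-beta) and bone morphogenetic protein (BMP) signalling were followed in SKMEL28 cells, a human melanoma cell line. They are ID1, ID2, ID3, ID4, SMAD6, SMAD7, TGFBI, SKIL and TGFB1, 9 of the 48162 genes in the deposited tables, and each was found as the 1 row bearing its symbol. The cells, grown in DMEM with 5% FBS, carried lentiviral hairpins against GFP (shCont), against p16 (shp16) or against both p16 and ATR (shp16+shATR), and had been under 1 µg/ml puromycin for 3 days. All groups therefore share the viral infection and the drug selection. RNA was sequenced in 9 libraries, 3 per group. The labels do not say that the libraries of a group came from separate infections, and for LSS mRNA the study speaks of technical replicates of 1 experiment, so p-values measure only the spread between these libraries, which may be technical. Which ATR hairpin was used, and whether shp16 cells also received a control virus in place of it, is not given in the sources used here. The comparisons ask what p16 knockdown changes in the transcriptome, and what knockdown of the DNA damage kinase ATR changes on top of it.

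Ligands of the TGF-beta family bind pairs of type I and type II serine/threonine kinase receptors. TGF-beta and activin receptors phosphorylate SMAD2 and SMAD3, BMP receptors phosphorylate SMAD1, SMAD5 and SMAD9, and either set enters the nucleus with SMAD4. ID genes are classical BMP targets whose products bind E proteins and keep them off DNA, SMAD6 and SMAD7 are inhibitory SMADs induced by the pathways they block, SKIL encodes the SMAD corepressor SnoN, TGFBI encodes a matrix protein named for its induction by TGF-beta, and TGFB1 encodes the ligand itself.

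For the sequence context of these genes, the 250 bases before each RefSeq transcription start (GRCh38.p14) were searched on both strands, and all 9 genes had an entry. The letters searched were GTCTAGAC (the palindromic SMAD site), CAGAC (the core of the CAGA box), GGCGCC and GGAGCC (GC-rich sites bound by BMP-activated SMADs) and CANNTG (the E-box bound by E proteins). GTCTAGAC stood in 0.182% of 35116 promoters, CAGAC in 38%, GGCGCC in 16.4%, GGAGCC in 30.6% and CANNTG in 61.8%. The palindrome contains GTCTA, which is not the CAGAC core, so these motifs do not overlap by construction. The upstream stretches of ID1, ID4 and SKIL are printed as examples from the genes called in at least 1 comparison, each ending before the first annotated transcribed base, with the SMAD-type letters in capitals on either strand. ID1 covers chr20:31605039-31605282, ID4 covers chr6:19837120-19837369 and SKIL covers chr3:170357465-170357677, all on the plus strand.
ID1: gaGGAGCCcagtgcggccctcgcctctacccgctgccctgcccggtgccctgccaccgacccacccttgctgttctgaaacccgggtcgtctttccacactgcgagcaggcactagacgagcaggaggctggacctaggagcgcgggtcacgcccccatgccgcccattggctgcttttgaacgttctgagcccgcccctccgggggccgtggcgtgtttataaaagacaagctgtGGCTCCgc
ID4: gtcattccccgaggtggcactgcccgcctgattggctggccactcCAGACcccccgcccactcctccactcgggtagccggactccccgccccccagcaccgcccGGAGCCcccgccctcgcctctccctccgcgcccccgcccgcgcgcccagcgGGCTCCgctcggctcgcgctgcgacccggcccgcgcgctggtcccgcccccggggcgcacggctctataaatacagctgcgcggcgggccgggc
SKIL: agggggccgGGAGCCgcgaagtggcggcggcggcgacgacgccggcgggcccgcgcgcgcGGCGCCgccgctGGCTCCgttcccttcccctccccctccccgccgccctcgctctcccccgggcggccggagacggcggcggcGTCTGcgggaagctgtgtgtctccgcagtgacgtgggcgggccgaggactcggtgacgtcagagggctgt
For ID3 (chr1:23559632-23559661, minus strand) and SMAD6 (chr15:66702206-66702235, plus strand), 30 bases around a site are given, the first for its CAGAC and the second for its palindrome. In these stretches only that site is in capitals.
ID3: cggtcttcggcgtCAGACcagccggaggaa
SMAD6: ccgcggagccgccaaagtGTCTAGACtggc
SMAD6 was the only one of the 9 genes with the palindrome in this window, 12 bases before its start. It also held GGAGCC at 124, 110 and 26 bases, the last in lower case in the stretch above. ID1 held GGAGCC at 248 bases and its reverse complement at 14 bases before the start, and had none of the other letters. ID4 held CAGAC at 205 bases, GGAGCC letters at 145 and 94 bases and an E-box at 21 bases before the start. A match is a description of the sequence and not evidence of binding.

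Library totals lay between 17314662 and 23588174 counts. The first shCont and the first shp16 library stood apart from the other libraries of their groups. The chi-square per degree of freedom between libraries was 68.5 and 83.4 for shCont replicate 1 against the others and 5.15 between shCont replicates 2 and 3, and it was 37.9 and 37.2 for shp16 replicate 1 against 1.94 between shp16 replicates 2 and 3. Calls that change without these libraries, and called values that move by over 1.5 times, are given both ways for the 9 genes. ATR, the target of the second hairpin, was at 45.9, 93.5 and 96.4 CPM (read counts relative to the TMM-scaled library size) in shCont, at 93.5, 83.4 and 85.6 in shp16 and at 39.9, 40.0 and 41.0 in shp16+shATR. It was lower in shp16+shATR than in shp16 by a log2 fold change of −1.12 (SE 0.220, edgeR adjusted p = 0.0128). CDKN2A, which encodes p16, was at 162, 112.5 and 103 CPM in shCont and at 78.1, 93.5 and 99.9 in shp16, a log2 fold change of −0.48 that missed the threshold (edgeR adjusted p = 0.0723). All 8 melanocyte lineage markers had counts in every group, with a summed level of 7769 to 15000 CPM per library. PTPRC and CD3E, which mark blood cells, were at 0 in every library.

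Compared per length, ID3 was the most abundant of the 9 genes in every group and TGFBI the least. In shCont, ID3 was at 146 ± 31.1 FPKM (fragments scaled by gene length and library total; SD, n = 3), ID1 at 25.0 ± 5.95, ID2 at 9.35 ± 0.763, SKIL at 5.55 ± 1.71 and ID4 at 3.19 ± 0.309. SMAD7 followed at 2.80 ± 0.655 FPKM, SMAD6 at 1.60 ± 0.367, TGFB1 at 1.11 ± 0.440 and TGFBI at 0.0564 ± 0.0307. The libraries of ID4 and SMAD7 overlapped, as did those of SMAD6 and TGFB1, so the order within these pairs was not separated. ID4 stood above SKIL in shp16 (6.16 ± 0.797 against 3.35 ± 0.118 FPKM) and in shp16+shATR (5.86 ± 0.251 against 4.22 ± 0.295), whereas SKIL stood above ID4 in shCont. In shp16, ID2 and ID4 overlapped, as did SMAD7 and SKIL, and SMAD6 and TGFB1. In shp16+shATR, SKIL overlapped with SMAD7, and TGFB1 with SMAD6.

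**Figure D1:**
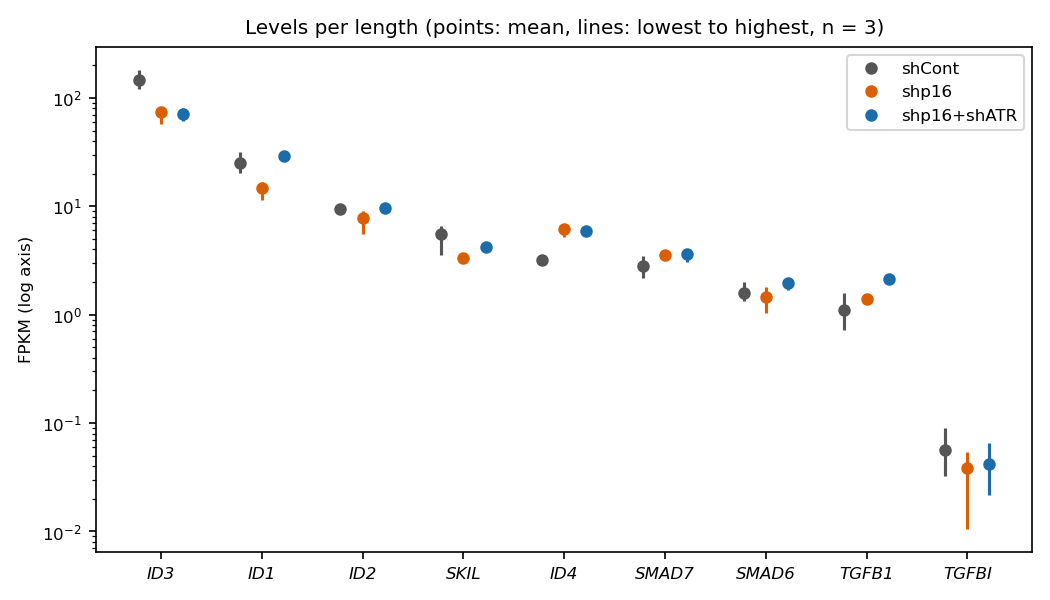
FPKM of the 9 genes on a log axis, ordered by their mean in shCont; points are group means and lines run from the lowest to the highest of 3 libraries. ID3 is highest and TGFBI lowest in each group, and the ID4 points of shp16 and shp16+shATR lie above that of shCont.

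Knockdown of p16 was accompanied by lower ID1, ID3 and SKIL and by higher ID4. Between shp16 and shCont, 4 of the 8 genes tested passed the threshold (edgeR's quasi-likelihood test, Benjamini-Hochberg adjusted p under 0.05 over 15776 genes), 1 higher and 3 lower. Of all genes tested, 7.23% were called higher and 7.59% lower. The median log2 fold change was −0.21 over the 8 genes and −0.016 over all genes. TGFBI did not pass the filter on low counts and was not tested. Since RNA came from whole cultures, fewer cells expressing a gene and less of its RNA per cell cannot be told apart.

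ID3 (ENSG00000117318, GRCh37 chromosome 1 from 23884409 to 23886285, minus strand), an inhibitor of E proteins, was at 236, 163 and 151 CPM in shCont, at 76.3, 101.2 and 100.2 in shp16 and at 89.6, 98.5 and 78.0 in shp16+shATR. Every library with the p16 hairpin lay below every shCont library, and the libraries of both knockdown groups overlapped. ID3 was 1.98-fold lower in shp16 than in shCont (log2 fold change −0.99, SE 0.178, edgeR adjusted p = 0.00346) and 2.07-fold lower in shp16+shATR (−1.05, SE 0.178, edgeR adjusted p = 0.00144). For ID3 in shp16+shATR relative to shp16, the log2 fold change was −0.06, with a 95% interval from −0.45 to 0.32. Without shCont replicate 1, which held the highest level, the fall in shp16 was −0.77 (edgeR adjusted p = 0.000744), and without the first library of both shCont and shp16 it was −0.64 (edgeR adjusted p = 5.96e-06).

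ID1 (ENSG00000125968, chromosome 20 from 30193086 to 30194318, plus strand), another E protein inhibitor, moved in both steps. Its levels were 40.4, 26.8 and 24.8 CPM in shCont, 14.9, 20.1 and 19.5 in shp16 and 37.6, 36.0 and 33.9 in shp16+shATR. The shp16 libraries lay below all others, and those of shp16+shATR fell within the range of shCont. ID1 was 1.69-fold lower in shp16 than in shCont (log2 fold change −0.76, SE 0.183, edgeR adjusted p = 0.0183) and 1.97-fold higher in shp16+shATR than in shp16 (0.98, SE 0.183, edgeR adjusted p = 0.00986). These contrasts share the shp16 libraries. The rise in shp16+shATR was called in 19 of 19 alternative analyses, with log2 fold changes from 0.85 to 1.06. The fall in shp16 was called in 16 of 20, with log2 fold changes from −0.89 to −0.38. Its call was lost without shp16 replicate 1 (−0.63, edgeR adjusted p = 0.0766), with only the groups compared (edgeR adjusted p = 0.0586) and with a replicate block in limma on FPKM (adjusted p = 0.0595) or in edgeR on the counts (adjusted p = 0.186). Without shCont replicate 1 the fall was −0.51 (edgeR adjusted p = 0.00827), and without the first library of both shCont and shp16 it was −0.38 (edgeR adjusted p = 0.00330). Against shCont, ID1 in shp16+shATR had a log2 fold change of 0.22 (edgeR adjusted p = 0.404), and without shCont replicate 1 it was higher by 0.47 (edgeR adjusted p = 0.00862).

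**Figure D2:**
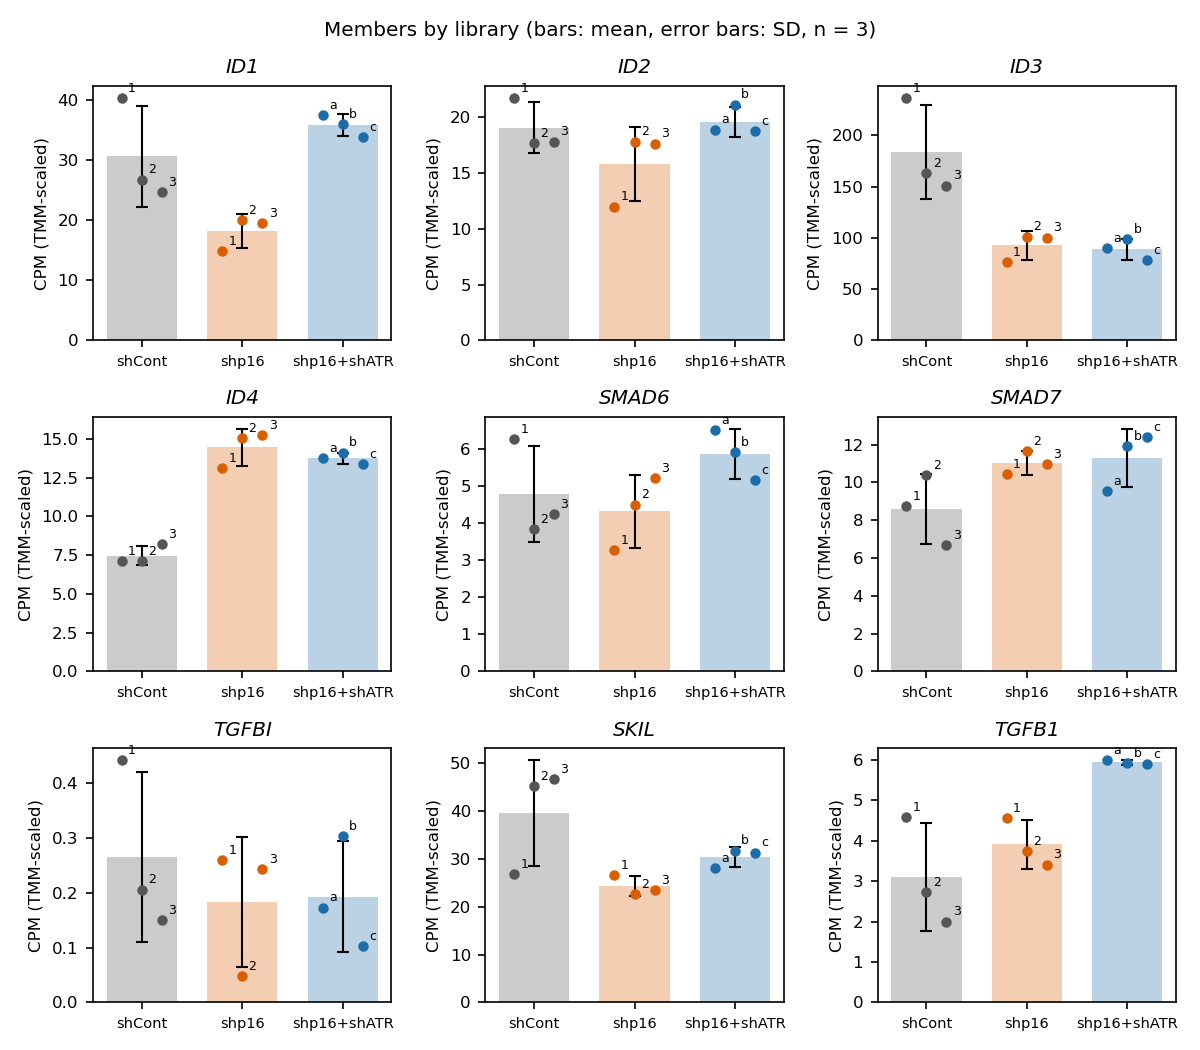
TMM-scaled CPM of each of the 9 genes by library, each panel with its own axis from 0; bars are means, error bars SD (n = 3), and labels beside the points name the library. ID1 dips in shp16 at 14.9 to 20.1 CPM, and ID3 is lower and ID4 higher in both knockdown groups. The highest shCont library is replicate 1 for ID1, ID2, ID3, SMAD6, TGFBI and TGFB1, and it is the lowest for SKIL.

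ID4 (ENSG00000172201, chromosome 6 from 19837617 to 19840915, plus strand) went the other way from ID1 and ID3. It was at 7.11, 7.09 and 8.19 CPM in shCont, at 13.1, 15.03 and 15.2 in shp16 and at 13.7, 14.1 and 13.4 in shp16+shATR. No shCont library reached the level of any library with the p16 hairpin. ID4 was 1.94-fold higher in shp16 (log2 fold change 0.95, SE 0.127, edgeR adjusted p = 0.000502) and 1.84-fold higher in shp16+shATR (0.88, SE 0.128, edgeR adjusted p = 0.000550) than in shCont, and it was called in all 20 and all 19 alternatives. Between both knockdown groups its log2 fold change was −0.07, with a 95% interval from −0.34 to 0.20.

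ID2 (ENSG00000115738, chromosome 2 from 8818975 to 8824583, plus strand), the remaining ID gene, was called in no comparison. It was at 21.7, 17.7 and 17.8 CPM in shCont, at 12.0, 17.8 and 17.6 in shp16 and at 18.9, 21.2 and 18.8 in shp16+shATR. The shp16+shATR libraries lay above those of shp16, by a log2 fold change of 0.31 whose 95% interval ran from −0.04 to 0.66 (edgeR adjusted p = 0.318). With ID1 and ID3 lower, ID4 higher and ID2 not called, the 4 ID genes did not share 1 direction in shp16.

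The E proteins that ID proteins bind were read from the same libraries. TCF12 was at 29.8, 39.7 and 46.2 CPM in shCont and at 60.2, 54.4 and 54.5 in shp16. It rose in shp16 by a log2 fold change of 0.55 (SE 0.149, edgeR adjusted p = 0.0294), but was called in only 9 of 20 alternatives, and leaving out shCont replicate 2 or any single shp16 library ended the call (edgeR adjusted p from 0.066 to 0.0986), as did leaving out shp16+shATR library a or b (0.0519 and 0.0517). TCF3 was at 65.0 to 87.7 CPM in shCont, 77.1 to 86.8 in shp16 and 58.5 to 61.7 in shp16+shATR, and was called in no comparison. TCF4 did not pass the filter.

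Among the inhibitors of SMAD signalling, SKIL (ENSG00000136603, chromosome 3 from 170075466 to 170114623, plus strand) was the only one of the 9 genes called. It was at 26.8, 45.2 and 46.7 CPM in shCont, at 26.6, 22.7 and 23.4 in shp16 and at 28.0, 31.7 and 31.3 in shp16+shATR. The groups shCont and shp16 were parted only by the narrow gap between their first libraries, and the shp16+shATR libraries lay above those of shp16. SKIL was 1.63-fold lower in shp16 than in shCont (log2 fold change −0.70, SE 0.183, edgeR adjusted p = 0.0249). That call held in 10 of 20 alternatives. Without shCont replicate 1 the fall was −0.93 (edgeR adjusted p = 3.49e-05), whereas without shCont replicate 2 or 3 the adjusted p was 0.0834 and 0.0679, and without shp16 replicate 1, 2 or 3 it was 0.0541, 0.0917 and 0.0859. Relative to shp16, SKIL in shp16+shATR had a log2 fold change of 0.32 (edgeR adjusted p = 0.365), and without shCont replicate 1 it passed the threshold (0.33, edgeR adjusted p = 0.0188). In shp16+shATR against shCont it was −0.38 (edgeR adjusted p = 0.156), or −0.60 without shCont replicate 1 (edgeR adjusted p = 0.000384).

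The inhibitory SMADs were called in no comparison with all 9 libraries. SMAD7 (ENSG00000101665, chromosome 18 from 46446223 to 46477081, minus strand) was at 8.75, 10.4 and 6.69 CPM in shCont, at 10.4, 11.7 and 11.0 in shp16 and at 9.52, 11.9 and 12.4 in shp16+shATR. Its log2 fold change against shCont was 0.36 in shp16 (95% interval −0.02 to 0.74, edgeR adjusted p = 0.190) and 0.39 in shp16+shATR (0.01 to 0.77, edgeR adjusted p = 0.126). SMAD6 (ENSG00000137834, chromosome 15 from 66994566 to 67074338, plus strand) was at 6.27, 3.85 and 4.25 CPM in shCont, at 3.27, 4.51 and 5.22 in shp16 and at 6.52, 5.93 and 5.18 in shp16+shATR. Its groups overlapped in every comparison, and its log2 fold change in shp16 against shCont had a 95% interval from −0.66 to 0.36. In shp16+shATR against shCont it was 0.29 (edgeR adjusted p = 0.401), or 0.53 without shCont replicate 1 (edgeR adjusted p = 0.0700), and it passed the threshold at 0.52 without the first library of both shCont and shp16 (edgeR adjusted p = 0.0216).

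The ligand gene TGFB1 (ENSG00000105329, chromosome 19 from 41807492 to 41859816, minus strand) was at 4.59, 2.72 and 2.00 CPM in shCont, at 4.57, 3.75 and 3.41 in shp16 and at 6.00, 5.93 and 5.89 in shp16+shATR. Each shp16+shATR library lay above every other library, while shCont and shp16 overlapped through shCont replicate 1. TGFB1 was 1.90-fold higher in shp16+shATR than in shCont (log2 fold change 0.92, SE 0.262, edgeR adjusted p = 0.0245). Leaving out shCont replicate 2 or 3, or shp16+shATR library a, b or c, ended that call, at adjusted p values of 0.0767, 0.0631, 0.0682, 0.0683 and 0.0651. Without shCont replicate 1 the log2 fold changes were 0.72 in shp16 against shCont, 0.61 in shp16+shATR against shp16 and 1.33 in shp16+shATR against shCont, each past the threshold (edgeR adjusted p = 0.0284, 0.0281 and 0.000489). With all libraries, the first of these was 0.32 (edgeR adjusted p = 0.461) and the second 0.60 (edgeR adjusted p = 0.215). Without the first library of both shCont and shp16, the first was 0.60 (edgeR adjusted p = 0.0503) and the second 0.72 (edgeR adjusted p = 0.00671). The call in shp16 against shCont was made in only 1 of 20 alternatives. The gene overlaps others on the opposite strand, among them CCDC97 with 466 to 973 counts and HNRNPUL1 with 5316 to 7160, and the sources used here do not say whether counting used strand, so its level is uncertain.

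TGFBI (ENSG00000120708, chromosome 5 from 135364584 to 135399507, plus strand) was near the limit of detection. It had 10, 4 and 3 counts in shCont, 5, 1 and 5 in shp16 and 3, 7 and 2 in shp16+shATR. Summed by group, these 17, 11 and 12 counts correspond to 0.274 CPM (exact 95% Poisson interval 0.159 to 0.438), 0.181 (0.0902 to 0.323) and 0.2 (0.103 to 0.350), intervals that cover counting error only. A difference between groups was not detectable at this depth.

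After ATR knockdown on top of p16 knockdown, ID1 was the 1 gene of 8 called, in the higher direction, while 2.73% of all genes tested were called higher and 3.49% lower. The median log2 fold change was 0.32 over the 8 genes and 0.0021 over all genes. The other 7 genes tested missed the threshold. In shp16+shATR against shCont, 3 of 8 were called, ID4 and TGFB1 higher and ID3 lower, beside 10.9% of all genes called higher and 12.7% lower. Here the median was 0.26 over the 8 genes and −0.018 over all genes. Each pair of comparisons shares 1 group of libraries. For a single gene, the exact permutation test of 3 libraries against 3 cannot go below a two-sided p of 0.1.

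**Figure D3:**
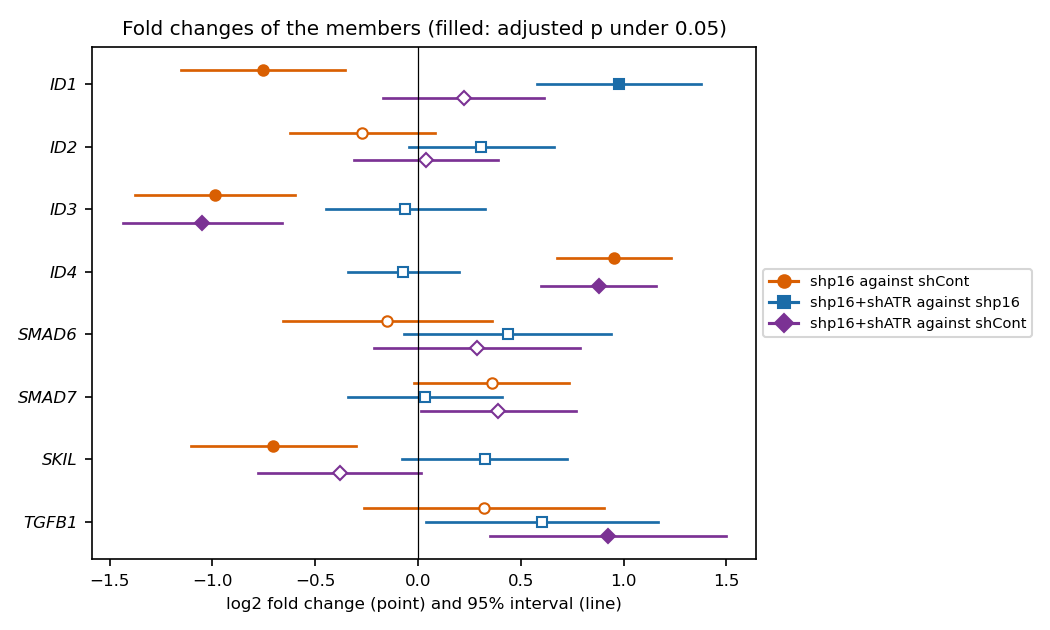
Log2 fold changes of the 8 tested genes (points) with 95% intervals from the edgeR fit (lines) in the 3 comparisons; filled points have an adjusted p under 0.05. ID3 and ID4 lie away from 0 on opposite sides in both comparisons with shCont, and ID1 lies at −0.76 and 0.98 in the first and second comparison.

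Scaling bears on how the background splits by direction. With TMM, 1141 genes were called higher and 1198 lower in shp16 against shCont, and 430 and 551 in shp16+shATR against shp16. With upper-quartile scaling the same counts were 922 and 1475, and 533 and 451. The directions of the called genes among the 9 were the same under every scaling tried.

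Genes of the wider pathway, in lists by role, gave 20 called of 76 tested in shp16 against shCont, 10 higher and 10 lower, with a median log2 fold change of 0.06. In shp16+shATR against shp16, 12 of 76 were called, 9 higher and 3 lower (median 0.04), and in shp16+shATR against shCont 27, 13 higher and 14 lower (median 0.20). These are 26.3%, 15.8% and 35.5% of the genes tested, beside 14.8%, 6.22% and 23.6% of all genes called in either direction. The lists were chosen with earlier results of these data known, so these shares are not a test of the pathway. Of 108 listed genes, the other 32 did not pass the filter on low counts.

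**Figure D4:**
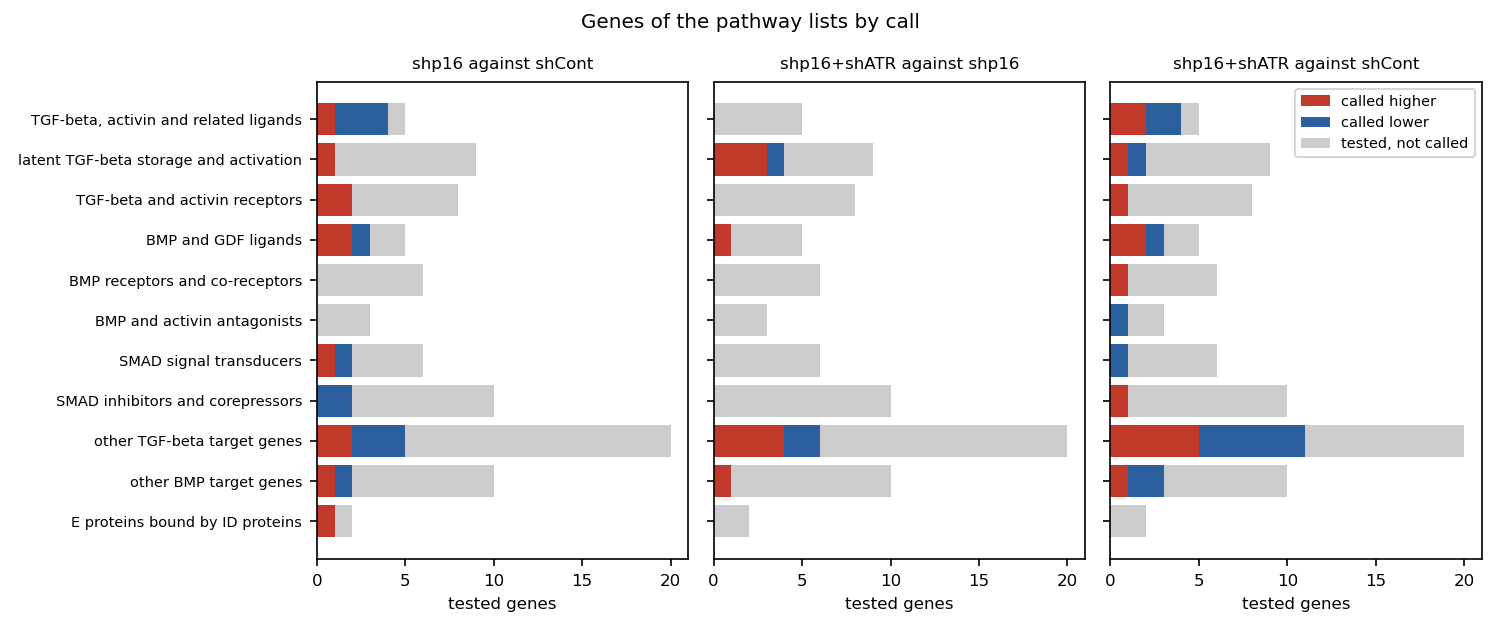
Number of tested genes in each pathway list that were called higher, called lower or not called, in the 3 comparisons (edgeR adjusted p under 0.05). Other TGF-beta target genes had 5, 6 and 11 of 20 called, beside 14.8%, 6.22% and 23.6% of all genes. The lists of ligands and of SMAD inhibitors include TGFB1 and, in turn, SMAD6, SMAD7 and SKIL.

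Of 5 TGF-beta, activin and related ligands tested (TGFB1 among them), 4 were called in shp16, 1 higher and 3 lower. Among all genes, 7.23% were called higher and 7.59% lower. GDF11, an activin-like ligand, rose from 16.8 to 20.7 CPM in shCont to 25.9 to 33.5 in shp16 (log2 fold change 0.66, SE 0.137, edgeR adjusted p = 0.00799). The 3 that fell were low in level and are named after their values were seen. They are TGFB3 (−0.85), INHA, the inhibin alpha subunit (−1.05), and INHBA, the activin A subunit (−2.19, from 0.928 to 2.20 CPM in shCont to 0.292 to 0.332). Of 5 BMP and GDF ligands, BMP7 rose from 23.4, 24.3 and 29.6 CPM to 57.7 to 67.0 (1.26, SE 0.120, edgeR adjusted p = 4.57e-05) and BMP8B rose by 0.62, whereas BMP2, also named after its values were seen, fell by 1.74 on the log2 scale. BMP4 had no count in any library.

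Of the genes for storage and activation of latent TGF-beta, 1 of 9 was called in shp16 against shCont, beside 14.8% of all genes. In shp16+shATR against shp16, 4 of 9 were called, 3 higher and 1 lower, beside 6.22% of all genes. THBS1, thrombospondin 1, which can release active TGF-beta from its latent form, was at 3.36, 4.78 and 4.70 CPM in shCont, at 6.91, 5.55 and 6.43 in shp16 and at 15.8, 17.0 and 15.3 in shp16+shATR. The 3 groups did not overlap, and the rise from shp16 to shp16+shATR was 2.55-fold (log2 fold change 1.35, SE 0.161, edgeR adjusted p = 0.00103). Its smaller difference between shp16 and shCont (0.56, edgeR adjusted p = 0.0464) was called in only 3 of 20 alternatives and lost its call when any of the 9 libraries was left out, with adjusted p from 0.0504 to 0.129. LTBP3, a latent TGF-beta binding protein, and LRRC33, which anchors latent TGF-beta, were higher by 0.66 and 0.51 (edgeR adjusted p = 0.0367 and 0.0369). Both lost their calls when shCont replicate 2 or any single library of the groups compared was left out (adjusted p from 0.0503 to 0.155). FURIN, the convertase that cleaves the TGF-beta precursor, fell by 0.86 on the log2 scale, from 278 to 287 CPM in shp16 to 149 to 162 in shp16+shATR (SE 0.0968, edgeR adjusted p = 0.000871).

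Of 8 TGF-beta and activin receptors, 2 were called in shp16, both higher, beside 7.23% of all genes called higher. ACVR2B, a type II activin receptor, rose in shp16 from 2.90 to 3.19 CPM to 6.17 to 8.21 (1.28, SE 0.167, edgeR adjusted p = 0.000423) and the co-receptor TGFBR3 by 0.70 (edgeR adjusted p = 0.0479). The TGFBR3 call held in 5 of 20 alternatives and was lost without shCont replicate 2, any shp16 library or any shp16+shATR library (adjusted p from 0.0701 to 0.155). Without shCont replicate 1 its log2 fold change was 0.43 (edgeR adjusted p = 0.00614). BMPR2, the BMP type II receptor, was higher in shp16+shATR than in shCont by 0.65 (edgeR adjusted p = 0.0413), a call lost without shCont replicate 2, shp16 replicate 2 or 3, or any shp16+shATR library (adjusted p from 0.0552 to 0.138), and without shCont replicate 1 the value was 0.40 (edgeR adjusted p = 0.0167).

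Among the SMADs that carry the signal, 2 of 6 were called in shp16 and in opposite directions, both of them in the BMP branch. The share over all genes was 14.8%. SMAD9 was at 2.25, 4.11 and 4.10 CPM in shCont and at 6.75, 7.07 and 5.80 in shp16 (log2 fold change 0.91, SE 0.227, edgeR adjusted p = 0.0206), without shp16 replicate 1 or 2 at adjusted p of 0.0601 and 0.0715. SMAD1, named after its values were seen, was at 3.76, 5.86 and 4.65 CPM in shCont and at 1.45, 1.99 and 1.02 in shp16 (−1.66, SE 0.271, edgeR adjusted p = 0.00187). SMAD2, SMAD3, SMAD4 and SMAD5 were called in no comparison. TGIF1, a SMAD corepressor, was lower in shp16 by −0.42 (edgeR adjusted p = 0.0485), called in 5 of 20 alternatives and lost without any library other than shCont replicate 1 (adjusted p from 0.0533 to 0.142). SMURF2, a ubiquitin ligase for receptors and SMADs, was higher in shp16+shATR than in shCont by 0.68 (edgeR adjusted p = 0.0132), or 0.64 without shp16+shATR library b (adjusted p = 0.0547).

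Other target genes of TGF-beta did not move as 1 group. IL11, a cytokine, was at 26.6, 23.1 and 22.4 CPM in shCont, at 0.935, 1.33 and 1.12 in shp16 and at 0.577, 0.865 and 1.64 in shp16+shATR. It was 21.1-fold lower in shp16 than in shCont (log2 fold change −4.40, SE 0.261, edgeR adjusted p = 1.31e-06), and the libraries of both knockdown groups overlapped. SPHK1, sphingosine kinase 1, fell by 1.39 on the log2 scale. CTGF, a matricellular protein, was at 49.6, 58.9 and 59.1 CPM in shCont, 21.1, 25.2 and 24.5 in shp16 and 39.3, 37.5 and 36.7 in shp16+shATR. Its log2 fold changes were −1.24 and 0.68 (edgeR adjusted p = 3.78e-05 and 0.00572), and it was lower in shp16+shATR than in shCont (−0.56, edgeR adjusted p = 0.00416). CDKN2B, which encodes p15 and lies beside CDKN2A, rose in shp16 by 0.59 (edgeR adjusted p = 0.00882) and TPM1, a tropomyosin, by 0.57 (edgeR adjusted p = 0.0127, and 0.0524 without shCont replicate 2).

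With ATR knocked down, CDKN1A, which encodes the cell cycle inhibitor p21, rose from 21.2, 24.4 and 25.5 CPM in shp16 to 42.3, 44.8 and 46.3 (log2 fold change 0.91, SE 0.115, edgeR adjusted p = 0.00140). SNAI2, a transcription factor of the neural crest, fell by 0.59 on the log2 scale (edgeR adjusted p = 0.00427). KLF10 was lower by −0.45 (edgeR adjusted p = 0.0462), a call lost without shCont replicate 2 or any single shp16 or shp16+shATR library (adjusted p from 0.0579 to 0.204). ANGPTL4, named after its values were seen, rose by a log2 fold change of 2.05 (SE 0.492, edgeR adjusted p = 0.0313) to a level of 0.995 to 1.64 CPM in shp16+shATR.

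BMP targets outside the ID genes gave 2 of 10 calls in shp16, 1 of 10 in shp16+shATR against shp16 and 3 of 10 in shp16+shATR against shCont, shares of 20%, 10% and 30% beside the 14.8%, 6.22% and 23.6% of all genes. SMAD9 is 1 of the 2 in shp16. ATOH8 was lower in shp16 by −0.66 (edgeR adjusted p = 0.0368), and shp16 replicate 2 or 3 or shp16+shATR library a or b, when left out, ended the call (adjusted p from 0.0522 to 0.127). RUNX2, a transcription factor of bone formation, was at 6.08, 7.59 and 7.85 CPM in shp16 and at 13.4, 15.7 and 10.6 in shp16+shATR (0.88, SE 0.183, edgeR adjusted p = 0.0162), at adjusted p of 0.0564 to 0.0958 without shp16 replicate 1 or 2 or shp16+shATR library a or b. MSX1, a homeobox gene, was lower in shp16+shATR than in shCont by −1.09 (SE 0.234, edgeR adjusted p = 0.00595).

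**Figure D5:**
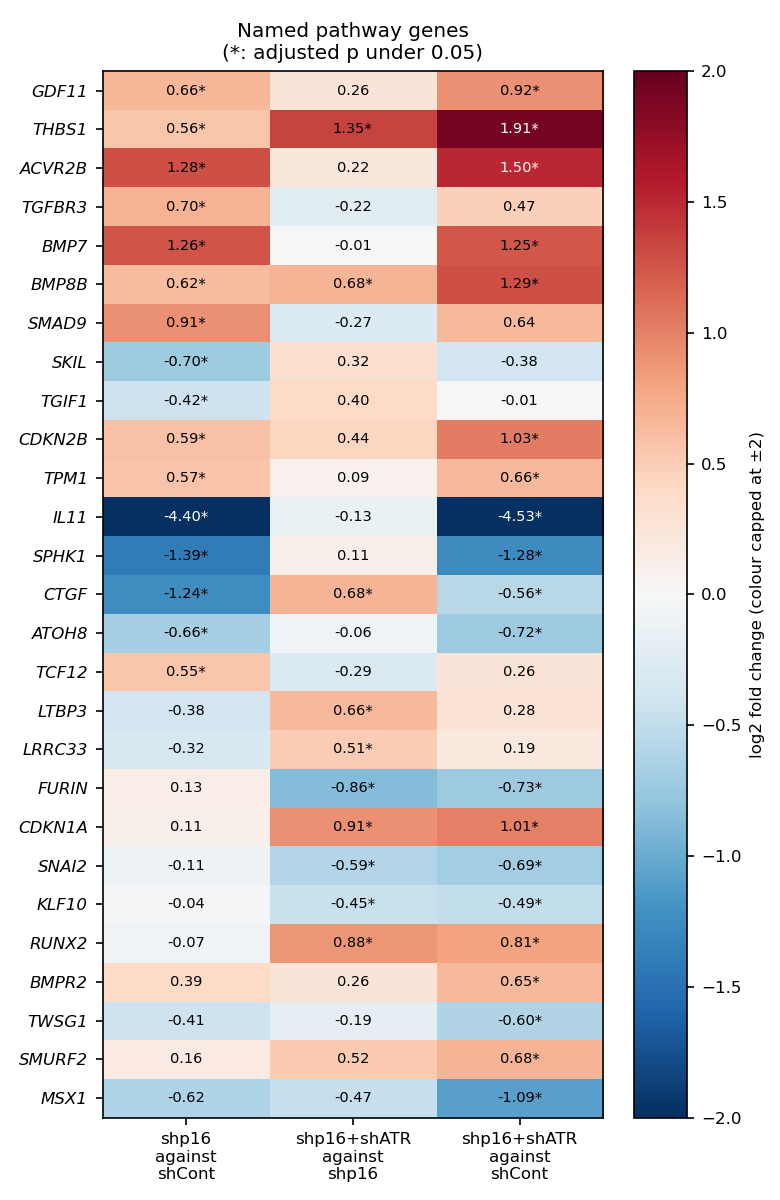
Log2 fold changes of the named pathway genes (rows) in the 3 comparisons (columns); colour runs from blue (lower) to red (higher) and asterisks mark an edgeR adjusted p under 0.05. CTGF is lower in the first column and higher in the second, IL11 is low in both comparisons with shCont, and THBS1 is higher in all 3.

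The 3 keratinocyte and epithelial markers tested were called higher in shp16 and in shp16+shATR than in shCont, beside 7.23% and 10.9% of all genes. The 4 keratinocyte and epithelial markers summed to 2.17 to 3.55 CPM in shCont, to 22.03 to 24.2 in shp16 and to 24.5 to 27.4 in shp16+shATR. Most of this was CDH1, at 1.77 to 3.00, 16.9 to 18.9 and 20.1 to 22.8 CPM. KRT5 was at 0 in all shCont libraries, at 2.03, 2.99 and 2.05 CPM in shp16 and at 2.25, 1.60 and 0.359 in shp16+shATR. Of the 5 fibroblast markers, summed levels were 32.7 to 42.4, 26.3 to 43.7 and 29.4 to 31.4 CPM. Most of this was LUM, with averages of 36.6, 36.9 and 29.4 CPM. DCN was low, with averages of 0.182, 0.597 and 0.800 CPM, and PDGFRB, PDGFRA and THY1 did not pass the filter. Of the 2 tested, 1 was called in shp16+shATR against shCont, in the higher direction. Of the 8 melanocyte markers, 6 were not called in shp16 against shCont, and the median log2 fold change over all 8 was −0.12. As many were not called when shp16+shATR was compared with shp16, with a median of 0.011. The 2 called each time were TYRP1 and S100B, so the list did not move as 1 group. Over all genes, 14.8% and 6.22% were called in these comparisons. TYRP1 fell in shp16 by 0.43 on the log2 scale and again in shp16+shATR by 0.88 (edgeR adjusted p = 0.0228 and 0.00140). S100B was lower in shp16 by −0.68 and higher in shp16+shATR than in shp16 by 0.67 (edgeR adjusted p = 0.0130 and 0.0254). The part of these markers in the changes of ID1, ID3, ID4 and SKIL was not tested.

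The genes whose log2 CPM ran most like that of ID1 over the 9 libraries, among 10736 genes with a mean of at least 5 CPM, were TNFRSF12A (Pearson r = 0.993), C8orf58 (0.977) and SWI5 (0.977). For SMAD7 they were AEN (0.907), TMEM185A (0.907) and TLR6 (0.899). These are descriptions over libraries that share their groups and their depth. No such list was made for TGFBI, which did not pass the filter.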

How the data were processed

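RNA-seq of 9 SKMEL28 libraries (3 per group) was analysed. The 9 genes and the pathway lists were chosen with earlier results of these data known. Libraries were prepared, sequenced and processed at Novogene. The submitters' processing notes list STAR 2.6.1, DESeq2 and GRCh38. Gene coordinates in the table differ from that build, as only 0.576% of identifiers shared with a GRCh38 annotation had the same start and end. They are read here as GRCh37, but no GRCh37 annotation was compared. The authors deposited raw counts per gene, without normalization, and FPKM values, which scale those counts by gene length and library total. The shp16+shATR count columns share 1 name and are called a, b and c. Scaled by gene length and library total, each equalled 1 FPKM column, a that of replicate 1, b that of replicate 2 and c that of replicate 3.

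Counts were scaled by TMM, filtered with filterByExpr and fitted by edgeR 4.0.16 (quasi-likelihood test, R 4.3.3) in 1 model holding every group, and p-values were adjusted by Benjamini-Hochberg over 15776 genes and a threshold of 0.05. Precision rested on the spread between libraries as well as on library totals of 17314662 to 23588174 counts. FPKM served to compare levels between genes. The procedure was tested on simulated data.

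Besides the 9 genes, up to 3 rises and 3 falls per list and comparison were named among called genes with a mean of at least 5 CPM, with CDKN2A and ATR as targets and the 3 genes most like ID1, SMAD7 and TGFBI. NBL1 has 2 rows and was left out, and PECAM1 was not used here. LRRC33 is the symbol the table gives for NRROS. Some genes counted in the lists are not reported here by name. Alternatives were DESeq2 1.42.0, upper-quartile and library-size scaling, other filters, only the groups compared, limma 3.58.1 on log2 FPKM with 1 or 0.1 added, a replicate block, stricter thresholds and each library left out. Leaving out the first library of both shCont and shp16 was chosen after seeing the data. Promoters came from RefSeq (GRCh38.p14).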

Additional observations from a re-analysis of the deposited data

How the results depend on the processing

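Depth limited TGFBI, whose 1 to 10 counts per library did not pass the filter of the edgeR test, and replicates that may be technical limit every p-value. Of the values of the 8 tested genes under the alternatives, 419 kept their direction and side of the threshold, 21 lost and 12 gained a call, and 12 turned direction. Of those of the named pathway genes, 704 kept both and 128 lost a call. The cause of these changes was not tested beyond what the alternatives themselves change (fewer libraries, fewer genes or a stricter threshold).

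The number of the 9 genes called was 4 in shp16 against shCont (the first), 1 in shp16+shATR against shp16 (the second) and 3 in shp16+shATR against shCont (the third), with 2339, 981 and 3724 of all genes and 20, 12 and 27 other pathway genes. Fitting only the groups compared gave 2 of the 9 genes, 1186 of all genes and 12 pathway genes in the first, and 3, 2878 and 19 in the second. DESeq2 gave 1508 genes in the second. An adjusted p under 0.01 gave 2, 994 and 12 in the first, 309 genes and 7 pathway genes in the second and 1974 genes in the third. A log2 fold change of at least 1 in addition gave 0, 779 and 9 in the first, 0, 165 and 3 in the second and 1, 1178 and 13 in the third. Without the first library of both shCont and shp16, 5264 genes and 35 pathway genes were called in the first, 3, 4304 and 27 in the second and 6, 7130 and 52 in the third.

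When single libraries were left out, the number of the 9 genes called ran from 2 to 5, from 1 to 3 and from 2 to 5. Genes called ran from 1344 (without shp16 replicate 3) to 4192 (without shCont replicate 1), from 292 (without shp16+shATR library b) to 3223 (without shCont replicate 1) and from 2354 (without shp16+shATR library a) to 5395 (without shCont replicate 1). Other pathway genes ran from 13 to 32, from 7 to 19 and from 21 to 40. Log2 fold changes that turned direction were small and never called. They ran from −0.30 to 0.093 for SMAD6 in shp16 against shCont, from −0.18 to 0.022 for ID3 and from −0.040 to 0.15 for SMAD7 in shp16+shATR against shp16, and from −0.020 to 0.14 for ID2 in shp16+shATR against shCont. Without both first libraries, SMAD6 was at 0.26 and SMAD7 at −0.0069 in these comparisons.

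Same-numbered libraries of different groups correlated between −0.303 and 0.289 in their deviations from the group means, so the numbers were not taken as pairs. With the replicate block, limma on log2 FPKM called 2 of the 9 genes and 1513 genes in the first comparison and 481 genes in the second. A replicate block on the counts of the groups compared called 1 of the 9 genes (ID4), 423 genes and 6 pathway genes in the first. It was run for that comparison only.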
